A study of Mus musculus with 106 samples.

Results

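Interferon stimulated genes are the transcripts that cells raise when interferon reaches them. A set of 9 of them was followed here by symbol in the 4 deposited count tables, out of 21647 genes in the table of 8 tissues, 23393 in the table of quadriceps and the warm tissues, and 23420 each in those of bone marrow and spinal cord. The 9 genes are Irf7, Isg15, Usp18, Ifit1, Ifit2, Ifit3, Rsad2, Oasl2 and Bst2, and all 9 were present in all 4 tables.

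Bulk RNA sequencing was done on tissues of male C57BL/6J mice without genetic modification. Mice aged 11 weeks (12 weeks for quadriceps) had spent 2 weeks at 10 °C, reached through steps of 5 days at 18 °C and at 14 °C, and mice aged 12 weeks at 34 °C for 4 weeks, each with controls at 22 °C, called room temperature (RT). A total of 11 tissues were compared at 10 °C and 5 at 34 °C, which gives 16 comparisons over 106 libraries. Most libraries pooled 2 mice, with 3 libraries in a group. Bone marrow (6 mice a group) and spinal cord (5 a group) were sequenced mouse by mouse, and interscapular brown adipose tissue (iBAT) of the warm experiment had 3 single RT mice against 2 single mice and 1 pool at 34 °C. The titles of all 106 libraries mark them as re-used. The labels do not tie the 6 RT libraries of quadriceps to a temperature, so all 6 were used for both here, although the column names pair 3 of them (QM) with the cold libraries and 3 (QC) with the warm ones. A whole tissue was measured, so fewer cells of a type and less RNA per cell cannot be told apart.

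Type I interferons are secreted when sensors such as RIG-I, MDA5 or cGAS meet viral or misplaced nucleic acid. They bind the receptor made of IFNAR1 and IFNAR2, and the signal from its kinases JAK1 and TYK2 reaches the interferon stimulated response element (ISRE) in promoters. Type II interferon acts through another promoter element, the gamma activated site (GAS). Macrophages, monocytes and plasmacytoid dendritic cells carry much of the standing expression of these genes in an uninfected animal.

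In the GRCm38 annotation, the assembly also called mm10, all 9 genes are protein coding. Ifit2, Ifit3 and Ifit1 lie close together on the plus strand of chromosome 19, at 34550694 to 34576419, 34583531 to 34588731 and 34640871 to 34650009. Isg15 lies on chromosome 4 (156199424 to 156200818), Oasl2 on 5 (114896936 to 114912234), Usp18 on 6 (121245906 to 121270917), Irf7 on 7 (141262706 to 141266481), Bst2 on 8 (71534255 to 71537456) and Rsad2 on 12 (26442746 to 26456452). Exons of Irf7 share 45 bases with Phrf1 and exons of Usp18 share 124 with Gm44148, each on the opposite strand, so reads there cannot be told apart without strand.

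Promoter windows from 250 bases before to 50 bases after the start, from the RefSeq annotation of GRCm38.p6, were available for 8 of the 9 genes (Ifit2 has 2 windows). The ISRE core, GAAANNGAAA on either strand, was found in 5 of the 8 genes and in 3.44% of 32851 windows of all genes. The GAS core, TTCNNNGAA, was found in 2, Ifit2 and Bst2, and in 8.3% of all windows. The stretches below run from 170 to 51 bases before the start and are shown because they hold every ISRE core found, in capitals, where matches overlap as 1 run.
Ifit1, chr19:34640719-34640838 (+): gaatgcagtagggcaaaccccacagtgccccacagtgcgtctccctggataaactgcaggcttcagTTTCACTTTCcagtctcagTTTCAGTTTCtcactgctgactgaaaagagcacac
Ifit3, chr19:34583359-34583478 (+): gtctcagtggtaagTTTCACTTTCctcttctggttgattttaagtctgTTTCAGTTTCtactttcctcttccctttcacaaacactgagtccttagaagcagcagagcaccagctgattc
Isg15, chr4:156200869-156200988 (-): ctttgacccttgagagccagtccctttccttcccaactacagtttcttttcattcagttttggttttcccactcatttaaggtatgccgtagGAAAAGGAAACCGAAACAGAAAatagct
Rsad2, chr12:26456503-26456622 (-): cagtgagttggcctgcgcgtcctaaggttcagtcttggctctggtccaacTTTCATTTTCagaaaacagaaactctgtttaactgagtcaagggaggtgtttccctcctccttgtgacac
Bst2, chr8:71537523-71537642 (-): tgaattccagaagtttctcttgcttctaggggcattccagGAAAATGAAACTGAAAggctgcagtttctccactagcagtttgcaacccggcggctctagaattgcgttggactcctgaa
In Ifit1 and Ifit3 the core lies 2 times on the opposite strand, in Rsad2 1 time. In Isg15 there are 3 overlapping copies, which begin 78, 72 and 66 bases before the start, and in Bst2 there are 2, at 130 and 124, beside a GAS core at 136 that overlaps the first. The windows of Irf7, Oasl2 and Ifit2 do not hold the ISRE core. A match describes the sequence and not binding.

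Library totals ran from 4262403 to 62880248 counts, with a median of 21585677. Values are CPM, a gene's count relative to the total of its library, scaled with TMM within a comparison, log2 fold changes (Log2FC) carry a standard error from edgeR's quasi-likelihood fit, and a gene is called where an unadjusted p of 0.05 or less comes with more than a 1.5-fold change. Adjusted p are Benjamini-Hochberg values over all genes tested in the comparison. All 9 genes passed the filter on low values in all 16 comparisons. Of 99 pairs of gene and tissue at 10 °C, 6 were called, 1 higher and 5 lower. Of 45 pairs at 34 °C, 9 were called, 8 higher and 1 lower. Tissues carried their defining markers, but RT replicate 2 of brain held Alb, the albumin of liver, at 49526 CPM, against at most 6.94 in the other 5 brain libraries of that comparison.

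**Figure D1:**
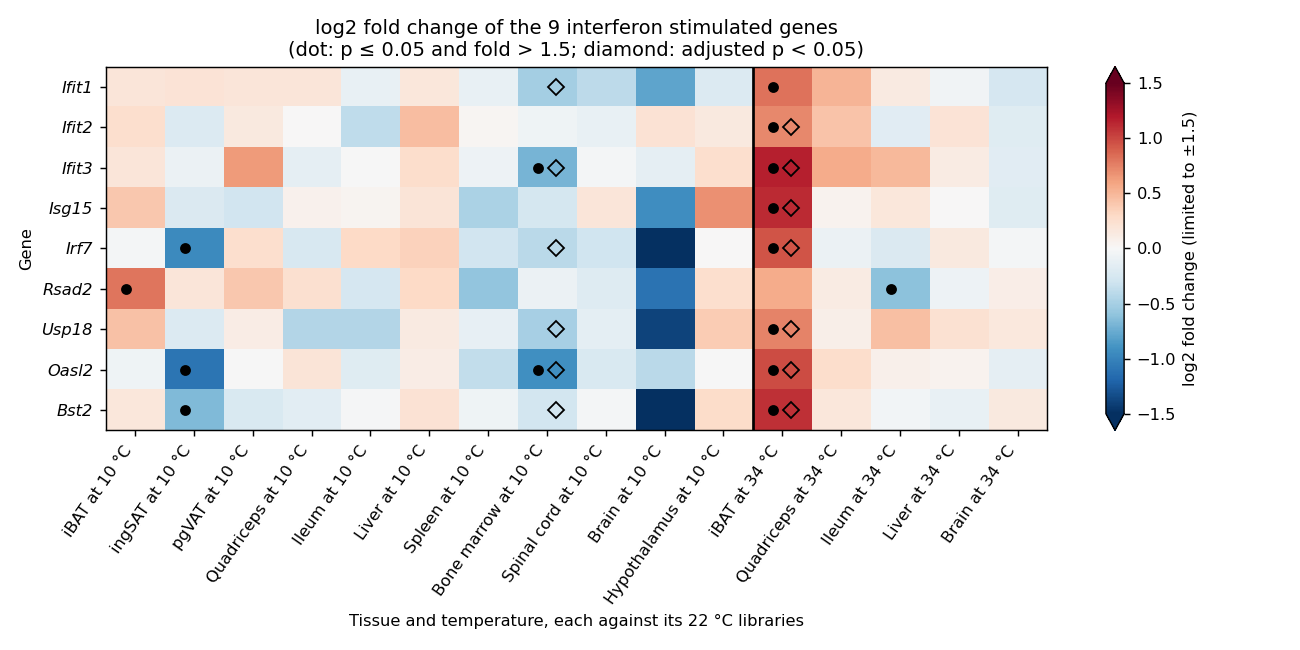
Log2FC of the 9 genes (vertical axis) in the 11 comparisons at 10 °C and the 5 at 34 °C (horizontal axis), each against RT, with colours limited at 1.5 either way, dots for calls and diamonds for an adjusted p under 0.05. The warm iBAT column is the only one in which 8 of the 9 genes were called, with Log2FC from 0.56 to 1.16, and in bone marrow all 9 values at 10 °C are below 0.

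In iBAT at 34 °C all 9 genes were higher than at RT, and in none did the groups overlap. Higher and not overlapping were 23.1% of the 12331 genes tested there. A total of 8 were called, where 19.4% of all genes were called in either direction and 12.2% higher, and 7 had an adjusted p under 0.05, against 13.5% of all genes in that direction. The median Log2FC of the 9 genes was 0.95, and that of all genes 0.025. Libraries are numbered here as in the columns of the table.

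Irf7, the transcription factor that amplifies type I interferon production, was at 9.06, 16.98 and 12.2 CPM at RT and at 22.6, 28.1 and 22.7 CPM at 34 °C. Every warm library was above every RT library, and the Log2FC was 0.95 ± 0.23 (SE, n = 3 and 3, edgeR adjusted p = 0.021). Isg15, a ubiquitin-like protein that is attached to other proteins, was at 3.70, 4.93 and 4.13 CPM at RT and at 7.95, 10.2 and 9.49 CPM at 34 °C. Its groups lay far apart compared with the spread within them, with a Log2FC of 1.12 ± 0.19 (edgeR adjusted p = 0.0062). Usp18, the protease that removes ISG15 and holds back the receptor, was at 5.25, 7.29 and 4.88 CPM at RT and at 8.02, 10.8 and 10.2 CPM at 34 °C. RT replicate 2 and 34 °C replicate 1 were close, and the Log2FC was 0.75 ± 0.21 (edgeR adjusted p = 0.036).

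The effectors moved in the same direction. Ifit3, of the family of proteins that bind viral RNA, was at 7.40, 17.2 and 9.20 CPM at RT and at 17.6, 26.2 and 31.5 CPM at 34 °C. The highest RT library and the lowest warm library nearly met, and the Log2FC was 1.16 ± 0.34 (edgeR adjusted p = 0.041). Ifit3 has a close copy, Ifit3b, and the split of reads between them is uncertain. Ifit1, whose product binds RNA caps, ranged over 3.88 to 8.12 CPM at RT and over 9.29 to 12.4 CPM at 34 °C, with a Log2FC of 0.81 ± 0.27 (edgeR adjusted p = 0.059). Ifit2, its partner, ranged over 5.95 to 10.6 CPM and over 12.2 to 14.4 CPM, with a Log2FC of 0.73 ± 0.22 (edgeR adjusted p = 0.047).

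Bst2, or tetherin, which holds budding virions at the cell surface, was at 22.5, 36.8 and 27.6 CPM at RT and at 63.8, 65.1 and 55.1 CPM at 34 °C. The gap between the groups was wider than the range of either, and the Log2FC was 1.09 ± 0.18 (edgeR adjusted p = 0.0062). Oasl2, of the oligoadenylate synthetase-like family, was at 4.59, 9.92 and 6.73 CPM at RT and at 14.4, 15.1 and 12.1 CPM at 34 °C. RT replicate 2 was the highest control for all genes but Rsad2, and Oasl2 had a Log2FC of 0.98 ± 0.27 (edgeR adjusted p = 0.034). Rsad2, or viperin, which makes a chain-ending nucleotide, was at 25.2, 14.9 and 22.97 CPM at RT and at 28.1, 31.4 and 32.1 CPM at 34 °C. Its groups did not overlap either, but the Log2FC of 0.56 ± 0.18 (edgeR adjusted p = 0.058) passed the limit on p but lay under that on fold.

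**Figure D2:**
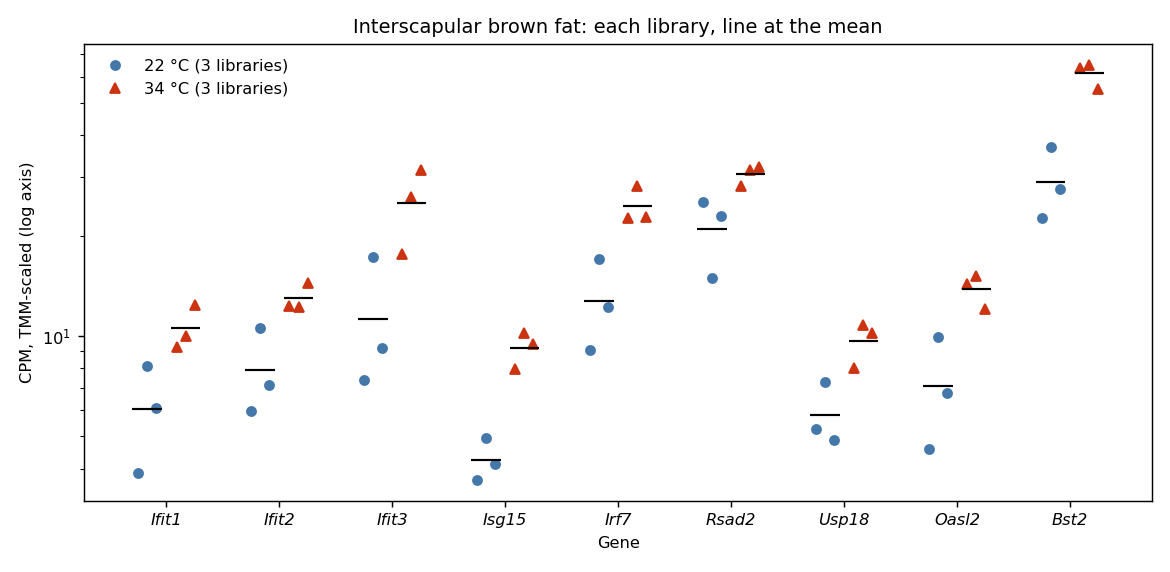
CPM of each of the 9 genes (log axis) in the 3 RT and 3 warm libraries of iBAT, 1 point per library and a line at the mean. For every gene the lowest warm library lies above the highest RT library, only just for Ifit3 (17.6 against 17.2 CPM) and clearly for Bst2 (55.1 against 36.8 CPM).

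With 1 library left out at a time, 6 to 9 of the genes were called in warm iBAT and 2 to 8 had an adjusted p under 0.05. Calls were lost for Ifit1 (0.58) and Ifit2 (0.56) without RT replicate 1, and for both without 34 °C replicate 3 (0.67 and 0.63). Isg15 and Bst2 kept an adjusted p under 0.05 in every such fit. For Ifit2, Ifit3, Usp18 and Oasl2 it rose to between 0.056 and 0.13 without any 1 library other than RT replicate 2, and for Irf7 to 0.068, 0.060 and 0.065 without RT replicate 3 and 34 °C replicates 1 and 2.

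Sums of endothelial, macrophage and monocyte markers were also higher in warm iBAT, where 12.2% of all genes were called higher. The part of these cells in the result was not tested. The summed level of 4 endothelial markers was 603 to 798 CPM at RT and 835 to 1146 CPM at 34 °C, with 3 of 4 called higher. That of 8 macrophage markers was 100.2 to 171 CPM and 173 to 263 CPM. Among them 1 of 8 was called higher (Cd68, Log2FC 1.21), a share near that of all genes. The sum of 4 monocyte markers was 23.3 to 37.1 CPM and 37.8 to 45.9 CPM. The list named for plasmacytoid dendritic cells, which holds Cox6a2, overlapped between the groups, at 0.555 to 22.1 CPM and 8.05 to 18.8 CPM. Its sum was not split by gene and cannot be read as a level of these cells. The sum of 3 brown adipocyte markers was 8888 to 11973 CPM at RT and 4009 to 5346 CPM at 34 °C (Ucp1, the uncoupling protein of heat production, Log2FC -2.26 ± 0.20, edgeR adjusted p = 0.0011). Skeletal muscle markers ran from 0.555 to 3420 CPM among the RT libraries alone.

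The rest of the pathway was read from lists, each to be set against the 12.2% of all genes called higher and 7.19% called lower in warm iBAT. Of 44 other type I effectors, 36 were tested in warm iBAT, 14 were called higher and 0 lower, with a median Log2FC of 0.50. The 4 with the smallest p were Ifitm3 (0.83 ± 0.10), which blocks virus entry, Xaf1 (0.91 ± 0.12), Ifi35 (0.64 ± 0.09) and Ifi27l2a (2.21 ± 0.35). Of 16 receptors and signalling genes, 15 were tested and 2 were called higher, Ifngr1 (0.67), a chain of the type II receptor, and Irf5 (1.31). That share is near that of all genes, but 6 of the 15 were higher with an adjusted p under 0.05 and 0 lower. At that limit 13.5% of all genes were higher and 15.4% lower. Of 14 nucleic acid sensing genes, 13 were tested and 3 were called higher, Tmem173 (0.86), known as STING, Ikbke (1.23) and Tlr7 (0.79). Of 4 ISG15 conjugation genes 1 was called higher, the ligase Herc6 (0.99), and of 25 interferon gamma responsive genes 23 were tested and 1 was called higher, Gbp5 (0.66), with a median of -0.03, a share below that of all genes. None of the 10 interferon ligands passed the filter on low values.

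Whether the warm response differed between tissues was tested in 1 fit over iBAT, ileum, liver, brain and quadriceps. Libraries of different tissues may share mice, which the fit does not take into account. The effect in iBAT minus the mean effect in the other 4 tissues was 1.02 ± 0.22 for Bst2 (edgeR adjusted p = 0.0015), 0.96 ± 0.24 for Irf7 (0.0045), 1.08 ± 0.34 for Isg15 (0.024) and 0.88 ± 0.28 for Oasl2 (0.027). Higher with an adjusted p under 0.05 were 8.77% of all genes. The other 5 genes had differences of 0.49 to 0.88 with an adjusted p of 0.097 to 0.29. The count of 4 fell to 2 without RT replicate 1, RT replicate 3 or 34 °C replicate 2 of iBAT, and it was 7 with library size as the only scaling. Under the fits that gave 2, Isg15 (adjusted p = 0.078, 0.064 and 0.064) and Oasl2 (0.13, 0.076 and 0.072) lost the call, as Oasl2 did without 34 °C replicate 1 (0.057). Without RT replicate 2 Ifit3 passed as well (1.34, adjusted p = 0.016).

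In the other warm tissues 1 pair was called. In ileum, where 2.83% of genes were called, Rsad2 was at 16.6, 14.6 and 16.7 CPM at RT and at 10.0, 10.9 and 10.0 CPM at 34 °C. The groups did not overlap, and the Log2FC was -0.61 ± 0.11 (edgeR adjusted p = 0.59). Lower without overlap were 6.45% of all genes. Without RT replicate 1 the fold change was 1.499, just under the limit, and in the same fit Ifit3 was called higher (0.75, edgeR adjusted p = 0.72). None of the 9 genes was called in quadriceps (1.25% of all genes called), liver (3.38%) or brain (0.193%). Their Log2FC ran from -0.08 to 0.56 in quadriceps, from -0.11 to 0.23 in liver and from -0.25 to 0.16 in brain, and the smallest edgeR adjusted p in them was 0.609 (Irf7 in liver). In quadriceps Ifit1 (0.77) and Ifit2 (0.62) were called without 34 °C replicate 2, Ifit3 without RT replicate QM 1 (0.69) or QC 1 (0.71), and Ifit1 without RT replicate QC 2 (0.70). With the QC controls alone 0 were called and the Log2FC ran from -0.05 to 0.68, with Ifit1 at 0.26 in place of 0.52.

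In bone marrow at 10 °C the Log2FC of all 9 genes were below 0, from -0.92 to -0.07 with a median of -0.40, where that of all genes was 0.013. A total of 2 were called, where 1.29% of all genes were called and 0.647% lower. A total of 6 had an adjusted p under 0.05, where 11.6% of all genes were lower at that limit. With 6 mice a group this comparison has the most replicates of the series, and most of these differences were below the 1.5-fold limit.

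Oasl2 ranged from 36.2 to 82.5 CPM at RT (median 59.2) and from 27.8 to 33.6 CPM at 10 °C (median 30.9). It was the gene whose groups did not overlap, where 3.43% of all genes were lower without overlap, and its Log2FC was -0.92 ± 0.16 (SE, n = 6 and 6, edgeR adjusted p = 0.0040). Ifit3 ranged from 4.15 to 9.90 CPM at RT (median 6.95) and from 3.49 to 5.88 CPM at 10 °C (median 4.04). The groups overlapped at the low end of RT, and the Log2FC was -0.70 ± 0.19 (edgeR adjusted p = 0.022). Irf7 ranged from 76.1 to 103 CPM (median 92.5) and from 62.4 to 81.4 CPM (median 65.2), with a Log2FC of -0.40 ± 0.08 (edgeR adjusted p = 0.0061).

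Usp18 ranged from 16.9 to 26.3 CPM at RT (median 20.5) and from 12.2 to 17.7 CPM at 10 °C (median 15.1), a Log2FC of -0.50 ± 0.12 (edgeR adjusted p = 0.010). Ifit1 had a Log2FC of -0.51 ± 0.15 (edgeR adjusted p = 0.027) and Bst2 of -0.28 ± 0.08 (edgeR adjusted p = 0.021). Both had groups that overlapped. Isg15 ranged from 88.2 to 125 CPM (median 97.4) and from 76.9 to 101 CPM (median 81.1), and its edgeR adjusted p was 0.055 (Log2FC -0.26 ± 0.09). Rsad2 was at 509 ± 83.2 CPM (SD) at RT and at 479 CPM on average at 10 °C, and Ifit2 at 27.7 and 26.6 CPM. For these 2 genes the Log2FC were -0.09 ± 0.10 (edgeR adjusted p = 0.56) and -0.07 ± 0.09 (edgeR adjusted p = 0.63).

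**Figure D3:**
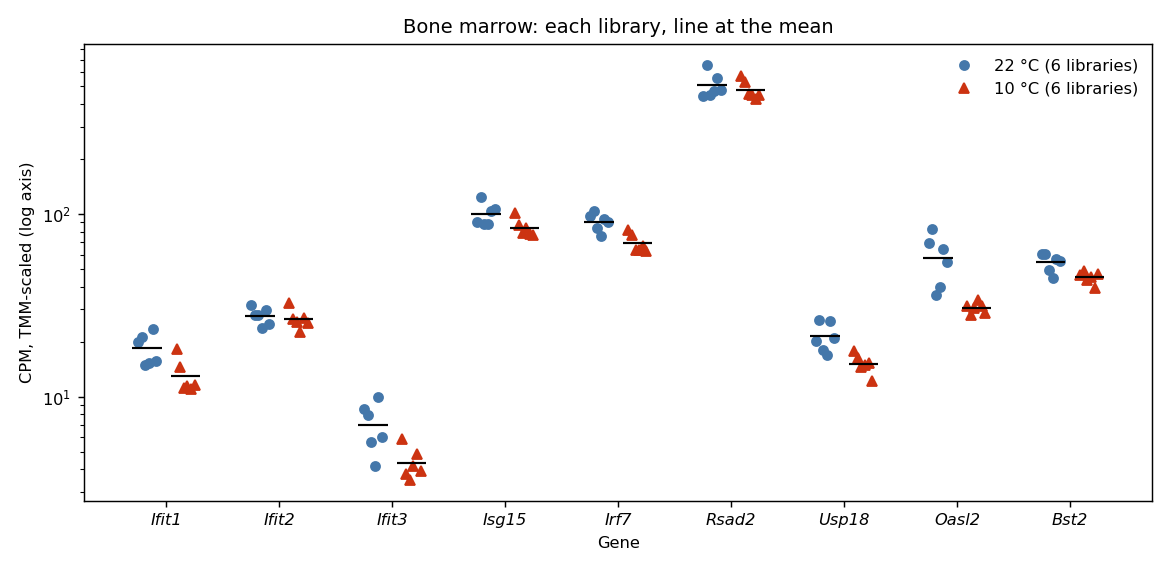
CPM of each of the 9 genes (log axis) in the 6 RT and 6 cold libraries of bone marrow, 1 point per mouse and a line at the mean. The Oasl2 points separate, with 27.8 to 33.6 CPM at 10 °C and 36.2 to 82.5 CPM at RT, while those of Rsad2 and Ifit2 lie over each other.

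Leaving out 1 mouse of bone marrow gave 1 to 3 called genes and 4 to 7 genes with an adjusted p under 0.05. Ifit3 lost its call without RT replicate 5 (Log2FC -0.57), and Ifit1 gained one without 10 °C replicate 1 (-0.63). The adjusted p of Ifit1 rose to between 0.052 and 0.062 without RT replicate 1, 2 or 5 or 10 °C replicate 3, 5 or 6, that of Ifit3 to 0.051 without RT replicate 1, and that of Bst2 to 0.0502 without RT replicate 2. Oasl2 was called in every such fit.

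In bone marrow the calls among the pathway lists were all lower, where 0.647% of all genes were called in each direction, and 11.6% were lower and 7.33% higher with an adjusted p under 0.05. Of 42 other type I effectors tested, 10 were called lower and 0 higher, and 32 were lower with an adjusted p under 0.05 against 1 higher. The 4 with the smallest p were Oas2 (-1.02 ± 0.15), which makes the second messenger of RNase L, Rtp4 (-0.89 ± 0.15), Mx1 (-0.69 ± 0.12) and Oas1a (-0.83 ± 0.16). Zbp1 (-0.75 ± 0.13), a sensor of Z-form nucleic acid, was the 1 of 14 sensing genes called. Lower with an adjusted p under 0.05 were 7 of 16 receptors and signalling genes, 7 of 14 sensing genes and 8 of 23 interferon gamma responsive genes tested, and 1 sensing gene was higher. Of the 4 ISG15 conjugation genes 1 was lower at that limit, the ligase Trim25 (-0.21), and Ube2l6 lay above 0 (0.26, edgeR adjusted p = 0.051). No receptor or signalling, gamma responsive or ISG15 conjugation gene was called. None of the 10 ligands was tested.

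Sums of monocyte and myeloid precursor markers were also lower in bone marrow at 10 °C, while B cell markers lay mostly higher. The part of these cells in the result was not tested. The sum of 4 monocyte markers was 2992 to 4566 CPM at RT and 2639 to 2971 CPM at 10 °C, and that of 3 myeloid precursor markers 4701 to 5863 CPM and 4080 to 4618 CPM, neither overlapping. Neutrophil markers were at 23563 to 35784 CPM and 21485 to 23783 CPM, and B cell markers at 468 to 646 CPM and 645 to 761 CPM. Macrophage markers (618 to 814 CPM and 643 to 754 CPM) and plasmacytoid dendritic cell markers (172 to 203 CPM and 159 to 199.8 CPM) overlapped. Siglech, which marks the latter cells, had a Log2FC of -0.25 ± 0.06 (edgeR adjusted p = 0.016).

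**Figure D4:**
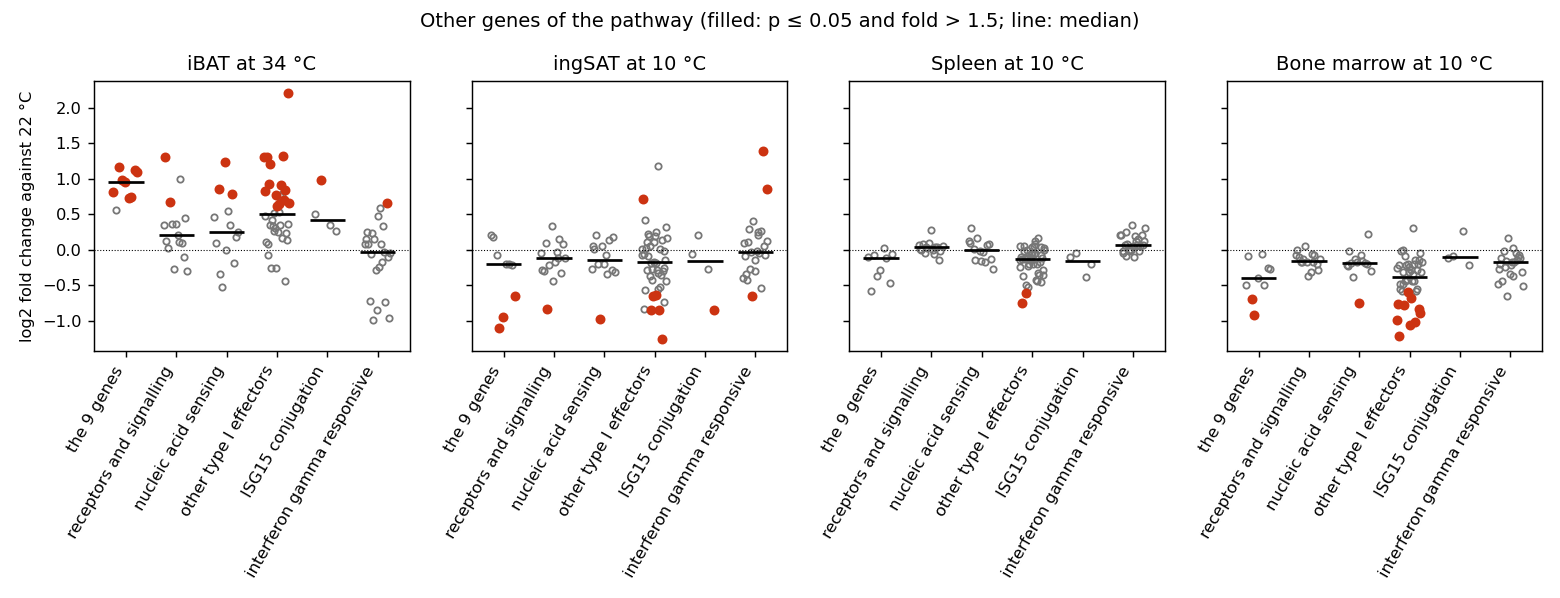
Log2FC against RT (vertical axis) of each tested gene of the 9 and of 5 pathway lists (horizontal axis) in warm iBAT and in cold ingSAT, spleen and bone marrow. Filled points were called, bars are medians, and the 14 filled type I effectors of warm iBAT lie above 0 while the 10 of bone marrow lie below.

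In spleen at 10 °C no gene was called, where 2.68% of all genes were. Irf7 was at 93.7, 97.9 and 88.3 CPM at RT and at 73.3, 74.6 and 80.5 CPM at 10 °C, a Log2FC of -0.29 ± 0.07 (edgeR adjusted p = 0.485). Oasl2 was at 30.7, 34.4 and 27.4 CPM and at 24.3, 23.2 and 23.9 CPM, a Log2FC of -0.37 ± 0.10 (edgeR adjusted p = 0.485). Both differences passed the limit on p but not that on fold. The groups of both genes did not overlap, nor did those of Bst2 (-0.07, edgeR adjusted p = 0.77), and 9.09% of all genes were lower without overlap. The sum of 5 neutrophil markers was 330 to 599 CPM at RT and 133 to 150.2 CPM at 10 °C, with 4 of 4 tested called lower, and that of monocyte markers 197 to 226 CPM and 130.4 to 165 CPM. Their part in the values of Irf7 and Oasl2 was not tested. Without RT replicate 1 of spleen Isg15 (-0.69) and Rsad2 (-0.82) were called lower, and without 10 °C replicate 3 Rsad2 was (-0.73). Of the 44 other type I effectors 2 were called lower, Oas1g (-0.75) and Ifit1bl2 (-0.61), where 2.04% of all genes were. The Log2FC lay below 0 for 34 of these 44 and for 8 of the 9 genes, where 48.9% of all genes lay above 0. The smallest edgeR adjusted p among the 44 was 0.485.

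In inguinal subcutaneous adipose tissue (ingSAT) at 10 °C 3 genes were called lower, where 16.3% of all genes were called and 9.14% lower. Oasl2 was at 43.5, 32.7 and 20.02 CPM at RT and at 16.5, 14.7 and 13.5 CPM at 10 °C. The groups did not overlap, where 16.7% of all genes were lower without overlap, and the Log2FC was -1.10 ± 0.28 (edgeR adjusted p = 0.059). Irf7 was at 101, 53.4 and 42.0 CPM and at 27.1, 46.4 and 27.5 CPM, a Log2FC of -0.95 ± 0.37 (edgeR adjusted p = 0.15). RT replicate 1 stood highest and the groups overlapped. Bst2 was at 53.1, 35.8 and 26.4 CPM and at 21.7, 26.1 and 24.9 CPM, a Log2FC of -0.66 ± 0.25 (edgeR adjusted p = 0.15). Its groups did not overlap, but the nearest libraries stood at 26.4 and 26.1 CPM.

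Without RT replicate 1 of ingSAT, Irf7 had a Log2FC of -0.50 and Bst2 of -0.35, neither called. The call of Irf7 was also lost without 10 °C replicate 1 (-0.82) or 3 (-0.82), and that of Bst2 without 10 °C replicate 1 (-0.58), 2 (-0.68) or 3 (-0.66) or RT replicate 2 (-0.71). Oasl2 was called in every such fit. The other 6 genes had Log2FC of -0.21 to 0.20. The sum of 8 macrophage markers was 631 to 1413 CPM at RT and 438 to 641 CPM at 10 °C, with 6 of 8 called lower, and its part in these results was not tested. Of the 44 other type I effectors 5 were called lower and 1 higher, Ifi27 (0.72 ± 0.13), near the 9.14% of all genes called lower and below the 7.2% called higher. Of the lower genes Dtx3l (-0.66), Ifitm3 (-0.86) and Tor3a (-0.64) had the smallest p.

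In 1 fit over 8 tissues the cold effect of ingSAT minus the mean of the other 7 was -1.03 ± 0.30 for Oasl2 (edgeR adjusted p = 0.029), where 8.44% of all genes had an adjusted p under 0.05. This call was lost without 10 °C replicate 2 (adjusted p = 0.094) or 3 (0.11) and without RT replicate 1 (0.21) or 2 (0.086) of ingSAT. Without RT replicate 2 of brain, the library with liver RNA markers, Irf7 (-1.10) and Bst2 (-0.75) passed as well.

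In iBAT at 10 °C, where 13.2% of genes were called, Rsad2 was called higher. It was at 26.2, 22.1 and 17.1 CPM at RT and at 53.3, 26.9 and 33.3 CPM at 10 °C. The groups lay next to each other without overlap, as they did for 17.1% of all genes in that direction, and the Log2FC was 0.80 ± 0.25 (edgeR adjusted p = 0.078). Without 10 °C replicate 1, the highest, it was 0.48 and not called, and without RT replicate 1 Usp18 was called too (0.62). The other 8 genes ran from -0.06 to 0.43. Skeletal muscle markers were at 4793 to 6208 CPM at RT and 1745 to 3946 CPM at 10 °C, and their part was not tested. The list named for plasmacytoid dendritic cells, which holds Cox6a2, was lower too, at 39.7 to 56.7 CPM and 15.6 to 33.9 CPM. Its sum was not split by gene and cannot be read as a level of these cells.

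Of 94 genes of the pathway lists tested in cold iBAT, each counted once, 8 were called, or 8.51%, below the 13.2% of all genes. Of 13 sensing genes 2 were higher and 1 lower, of 39 other type I effectors 2 were higher, and of 24 interferon gamma responsive genes 3 were lower, where 6% of all genes were called higher and 7.24% lower. None of 15 receptors and signalling genes or 4 ISG15 conjugation genes was called. Among the sensors Ddx58 (-0.59), known as RIG-I, was lower while Mavs (0.59), its adaptor, and Dhx58 (0.95) were higher. Znfx1 (0.65) and Isg20 (0.72), 2 of the other type I effectors, were higher. Cxcl9 (-1.22), Tap1 (-0.72) and Psmb9 (-0.64), all interferon gamma responsive, were lower.

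In brain at 10 °C no gene was called, where 2.72% of all genes were, yet the fitted changes were the widest of the series. Bst2 was at 2.54, 62.5 and 2.88 CPM at RT and at 2.14, 2.81 and 2.64 CPM at 10 °C. Irf7 was at 2.61, 23.3 and 1.71 CPM and at 2.27, 2.47 and 1.89 CPM. In both the second RT library alone stood apart, as it did for Rsad2 (12.5 CPM), Usp18 (8.16 CPM), Ifit1 (10.1 CPM) and Isg15 (3.51 CPM). The sum of 3 hepatocyte markers was 58529 CPM in that library and 736 and 1102 CPM in the other 2 RT libraries. With it, the Log2FC were -3.18 ± 1.39 for Bst2 and -2.07 ± 1.06 for Irf7. Without RT replicate 1 Bst2 was called (-3.71), and without RT replicate 3 both Bst2 (-3.70) and Irf7 (-2.56) were.

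Without that library, 8 of the 9 genes were tested in brain, 0 were called and the Log2FC ran from -0.35 to 0.24. The fit over 8 tissues gave a cold effect in brain below that of the other 7 for Bst2 (-2.82, edgeR adjusted p = 0.0023) and Irf7 (-1.70, edgeR adjusted p = 0.028), where 6.65% of all genes passed. Without the library these differences were -0.05 and 0.13, with no call. Usp18 (-1.20, edgeR adjusted p = 0.052) passed in some fits that left out another library.

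No gene was called at 10 °C in liver (3.28% of all genes called), perigonadal visceral adipose tissue (pgVAT, 7.94%), quadriceps (3.35%), ileum (2.71%), spinal cord (0.271%) or hypothalamus (0.578%). In liver all 9 Log2FC were above 0, from 0.11 to 0.46. Bst2 was at 88.2, 84.8 and 87.8 CPM at RT and at 106, 91.4 and 106 CPM at 10 °C. The groups did not overlap, where 13.2% of all genes were higher without overlap, and the difference of 0.21 ± 0.08 (edgeR adjusted p = 0.20) passed the limit on p but not that on fold. The same held for Ifit2, which had a Log2FC of 0.46 ± 0.18 (edgeR adjusted p = 0.22).

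In pgVAT Log2FC ran from -0.29 to 0.64, and 10 °C replicate 2 stood above the other cold libraries for most genes, with Rsad2 at 41.7 CPM against 11.4 and 10.7 CPM. Epididymis markers in these libraries ran from 1.47 to 13248 CPM at 10 °C and from 315 to 2556 CPM at RT. In ileum RT replicate 2 was the highest RT library for all 9 genes, with Oasl2 at 94.9 CPM against 42.9 and 60.9 CPM. Without it no gene was called, and Irf7 had the smallest p (Log2FC 0.48, edgeR adjusted p = 0.26). Without RT replicate 1 Usp18 was called lower (-0.65).

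In spinal cord Irf7 was at 3.76, 3.31, 3.46, 4.18 and 3.64 CPM at RT and at 2.90, 2.91, 3.34, 3.15 and 2.57 CPM at 10 °C. The ranges overlapped slightly, and the Log2FC, past the limit on p but not that on fold, was -0.30 ± 0.12 (edgeR adjusted p = 0.78). In hypothalamus Isg15 had the largest value, 0.68 ± 0.32 (edgeR adjusted p = 0.80), at 0.589 to 1.18 CPM at RT and 1.18 to 1.76 CPM at 10 °C. Isg15 was called there without 10 °C replicate 3 (0.79) or RT replicate 3 (1.01). In quadriceps the cold Log2FC ran from -0.43 to 0.24, and Usp18 was called without 10 °C replicate 1 (-0.71). With the QM controls alone 0 genes were called and the range was -0.34 to 0.50, with Ifit1 at 0.50 in place of 0.18. The warm and cold values of quadriceps share their RT libraries and are not independent.

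At RT the levels of these genes differed between tissues. Bone marrow was sequenced at another site than liver, spleen and ileum, so its place beside them was not tested. Per kilobase of merged exons, Bst2 in liver (148 CPM per kilobase), Isg15 in bone marrow (132), Rsad2 in bone marrow (117) and Rsad2 in spleen (80.0) were the highest. Merged exons cover all transcripts of a gene, so genes can be compared only roughly. Those of Irf7, with 13 transcripts, form 1 stretch of 3776 bases over the whole gene. Its values per kilobase may therefore be too low beside those of other genes. Irf7 was highest in ileum (31.3), and then in bone marrow (23.9) and spleen (20.4). Oasl2 (11.2) and Ifit1 (20.8) also had their highest level in ileum, and Ifit2 (8.05), Ifit3 (11.8) and Usp18 (9.79) in spleen. Spleen did not differ from the next tissue of its table for Ifit2 (edgeR adjusted p = 0.56), Ifit3 (0.95) or Usp18 (0.88), nor ileum from spleen for Irf7 (0.34). These levels were scaled over other libraries than the comparisons above, so a CPM here differs from one given there.

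Rsad2 spanned a wide range. It was at 506 ± 82.7 CPM (SD, n = 6) in bone marrow, 347 ± 112 (n = 3) in spleen, 26.8 ± 5.40 in iBAT and 2.26 ± 0.42 in hypothalamus. Irf7 was at 118 ± 25.6 CPM in ileum, 77.0 ± 5.03 in spleen, 41.8 ± 6.10 in liver and 3.45 ± 0.35 in hypothalamus. Bst2 was at 134 ± 5.14 CPM in liver, 39.5 ± 1.5 in spleen and 1.68 ± 0.42 in hypothalamus. Its value in brain, 19.6 ± 29.9 CPM, rests on the second RT library. Bone marrow, spinal cord and quadriceps come from other tables and another sequencing site and were placed beside the 8 tissues with no test. RT levels of iBAT differed between the warm set, from that site, and the cold set. Isg15 averaged 4.25 CPM in the warm set and 1.19 CPM in the cold set, and Ifit2 7.89 and 10.7 CPM. These sets differ in supplier and age too.

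**Figure D5:**
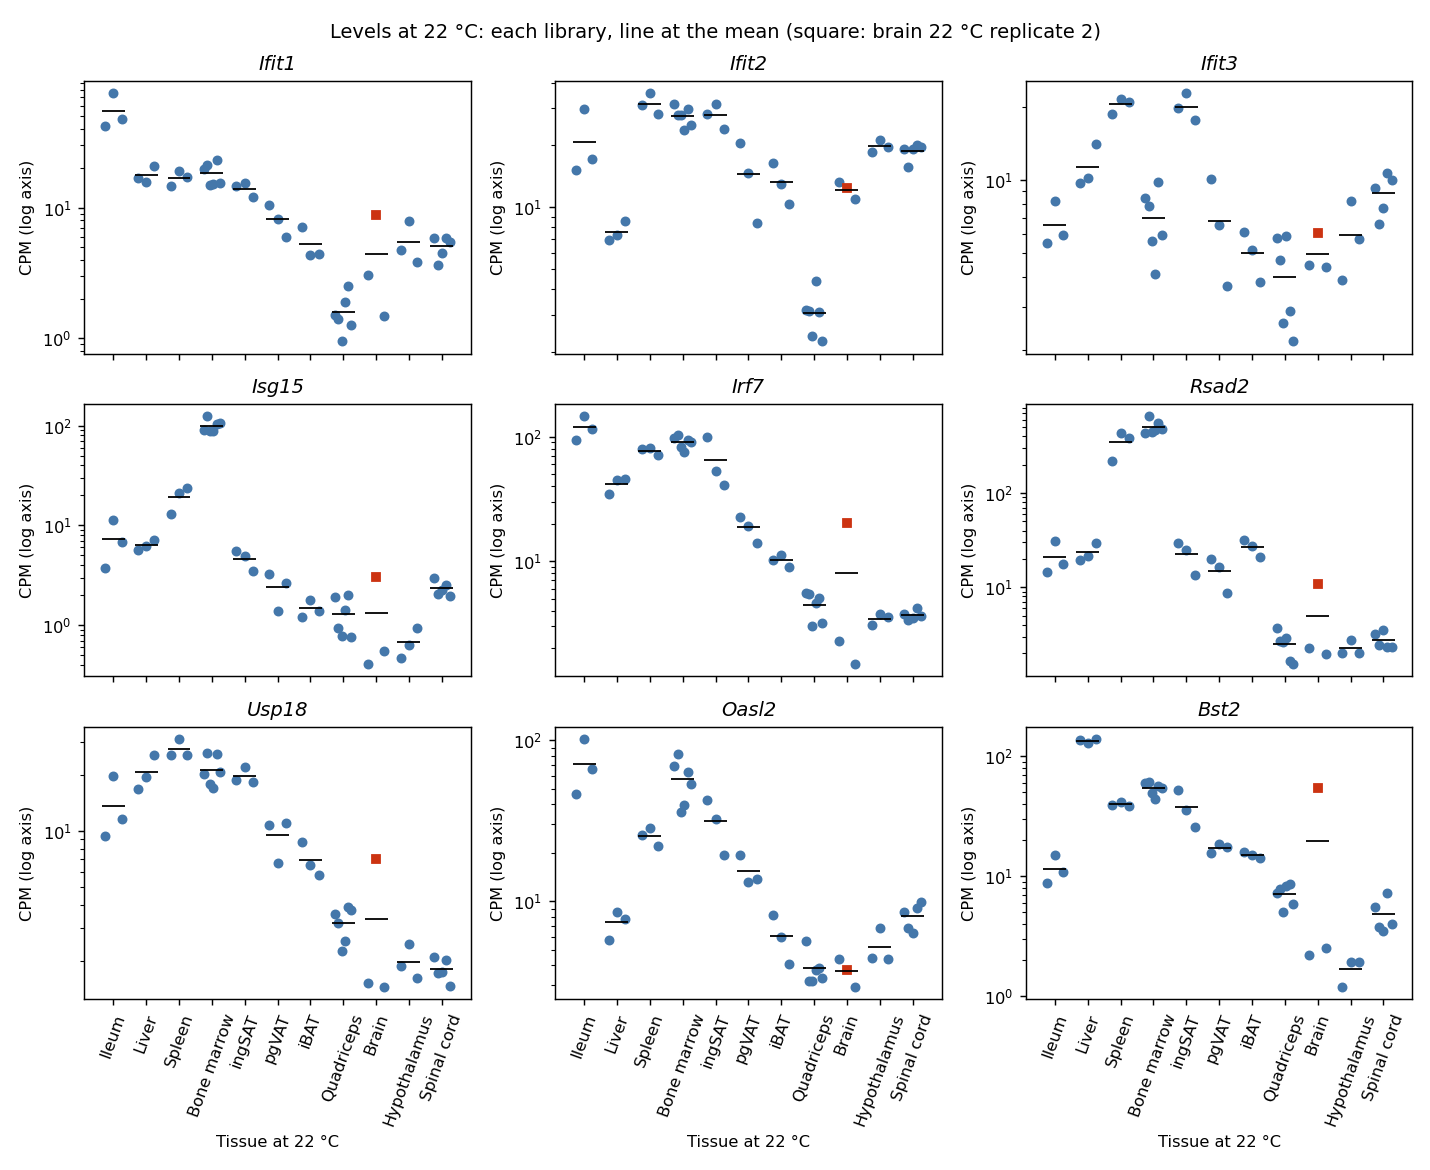
Level of each of the 9 genes at RT in 11 tissues, in CPM on a log axis, with 1 point per library, a line at the mean and a square for RT replicate 2 of brain. Spleen and bone marrow stand above the other tissues for Rsad2 (347 and 506 CPM on average), and liver stands above all for Bst2 (134 CPM).

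Of 63 neighbouring pairs in the order of the levels among the 8 tissues of 1 table, 11 differed with an adjusted p under 0.05. Neighbours are the smallest steps in each order, so this count cannot be read against the 65.3% found over all pairs of these tissues and all genes. The widest step was from spleen to iBAT for Rsad2, 3.53 ± 0.49 on the log2 scale (edgeR adjusted p = 3.1e-06), and the others included ileum to liver for Ifit1 (1.27 ± 0.39), spleen to ileum for Isg15 (1.43 ± 0.46) and liver to spleen for Bst2 (2.11 ± 0.69). For Ifit2 no neighbours differed. Without RT replicate 2 of brain 19 pairs differed.

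Between libraries of a group, the genes that varied most like the mean of the 9 genes were, over 48 libraries of 8 tissues and in order, Ddx60 (Pearson r = 0.89), Irgm1, Parp14, Ube2l6, Parp12, Ifi47, Mx2, Ifih1, Rtp4 and Eif2ak2 (r = 0.86). The values are deviations from the group mean and describe likeness only, since libraries share depth and composition. All 10 belong to the pathway lists. The members themselves, each against the other 8, ran from 0.53 (Ifit2) to 0.89 (Rsad2), with Oasl2 at 0.54. Without RT replicate 2 of brain, the library with liver RNA markers, Ifit2 stood at 0.84 and Oasl2 at 0.83, and the members ran from 0.53 (Bst2) to 0.85 (Rsad2). In the same setting 7 of the 10 other genes remained, with r from 0.77 to 0.81.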

How the data were processed

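Counts of reads per gene were deposited by the authors as whole numbers without scaling. The submitters' processing notes name STAR 2.5.3a, HTSeq 0.6p1, Picard 1.141 and mm10, and the study's methods give other versions of STAR and HTSeq. Bone marrow, spinal cord, quadriceps and all warm samples were sequenced at 1 site and the other 8 tissues at a second. No comparison of temperatures mixes the 2, but the levels at RT are set side by side across them. Cold and warm mice came from different suppliers. The study's methods name a TruSeq library kit for bone marrow, spinal cord and the 34 °C experiment, and a NEBNext kit for the rest. If the column names pair the quadriceps libraries rightly, each main quadriceps comparison used RT mice of both suppliers, and perhaps libraries of both kits. The labels give 34 °C in the treatment text of every sample, so temperatures were taken from the titles. The Ensembl identifiers of the 8-tissue table were turned into symbols for 21583 of 21647 genes.

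Counts were fitted with edgeR 4.0.16 (R 4.3.3) by the quasi-likelihood F test, two-sided, with TMM scaling and genes of average log2 CPM above 0. Each comparison held its own tissue's libraries, and differences between tissues were contrasts in 1 fit. Fits over several tissues treat all libraries as independent, although different tissues may come from the same mice. Calls use the study's limits (p at most 0.05, fold above 1.5). Where single mice are not stated, p-values measure the spread between pools. The genes, lists and tests were chosen with earlier results of these data known. All 9 genes have their own values in the text for warm iBAT and cold bone marrow, and only some of them in the other comparisons. Of each list and comparison at most 4 called genes with the smallest p are named, and for likeness the 10 with the highest r. The alternatives were DESeq2 1.42.0, the exact test of edgeR, scaling by library size, calls by adjusted p, other filters, a replicate block and each library left out. Added after seeing the data were the quadriceps controls by column prefix and likeness without RT replicate 2 of brain. The fits were tested on simulated data. Reads carry no molecular barcodes. No 2 libraries held identical counts. No promoter window was given for Usp18.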

Additional observations from a re-analysis of the deposited data

Results flagged for a closer look

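In 3 of 45 pairs of gene and group (9 genes in 5 groups of 5 or 6 libraries), 1 library stood far from the others, where chance gives about 1 in 20 (2.25 of 45). Oasl2 was at 6.00 CPM in RT replicate QM 1 of quadriceps, with the other 5 RT libraries at 3.30 to 3.97 CPM. Ifit2 was at 15.5 CPM in RT replicate 2 of spinal cord, with the other 4 at 18.9 to 19.9 CPM. Bst2 was at 6.45 CPM in 10 °C replicate 4 of spinal cord, with the other 4 at 3.98 to 4.68 CPM.

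A total of 7 effects differed between tissues in the joint fits (edgeR, adjusted p under 0.05). At 34 °C, iBAT exceeded the mean of the other 4 tissues by 1.08 for Isg15, 0.96 for Irf7, 0.88 for Oasl2 and 1.02 for Bst2 on the log2 scale. At 10 °C, ingSAT lay at -1.03 against the other 7 tissues for Oasl2. Brain lay at -1.70 for Irf7 and at -2.82 for Bst2 at 10 °C, where RT replicate 2 alone was high (23.3 and 62.5 CPM), and both calls were gone without it.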

How the results depend on the processing

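The counts of called genes were 6 at 10 °C and 9 at 34 °C. They stayed within 1.5 times of these under every alternative run, with 8 and 9 by the exact test, 7 and 9 by DESeq2, and 10 at 34 °C with library size as the only scaling. When each library in turn was dropped, they were 4 to 8 at 10 °C and 7 to 11 at 34 °C. The Log2FC of 19 called or adjusted gene and tissue pairs were followed over 274 settings. Of these, 1 per pair was no refit but judged the main fit by adjusted p alone. A total of 247 kept direction and side of the limits, 22 fell below them, 5 rose past them and 0 changed sign. For a pair that was not called, the same side means still not called, and losses of the adjusted p alone are not counted.

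Effects that differed between tissues numbered 3 at 10 °C and 4 at 34 °C. The count was 7 at 34 °C with library size only, and dropping single libraries gave 2 to 4 at 10 °C and 2 to 5 at 34 °C. The brain difference of Irf7 ran from -2.20 (without RT replicate 3 of brain) to 0.13 (without RT replicate 2), a change of sign. Neighbouring tissues that differed at RT numbered 11, and dropping single libraries gave 8 to 19. Of the 10 genes named for likeness, 9 remained with library size only. The cause of these shifts was not tested.

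The replicate numbers were not taken as pairs, since in no tissue did every same-numbered pair correlate above 0.1. With 3 pairs in most tissues this check cannot exclude pairing, and in ileum and hypothalamus 2 of 3 pairs lay above 0.1. With a replicate block, 5 genes were called at 10 °C in place of 6, Bst2 in ingSAT being lost (Log2FC -0.60, edgeR adjusted p = 0.22), and 1 effect in place of 3 differed between tissues. The quadriceps controls by title number could not be run, because the columns of the table carry no such numbers. With the controls chosen by column prefix, 0 genes were called at either temperature. Few counts limit the precision of genes near 1 CPM, such as Isg15 in brain and quadriceps.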
